A study of Mus musculus with 9 samples.

Results

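Hair cells (HCs) are the sensory cells of the inner ear. Deflection of the stereocilia, the actin-filled projections on their apical surface, opens mechanotransduction channels, and the resulting calcium entry drives release of glutamate from ribbon synapses at their base. The transcriptome of wild-type HCs at postnatal day (P) 1 was described here from 3 libraries of a series of 9, each made from 1 mouse and numbered 44, 55 and 59. The mice were *Mir96*+/+ and carried *Atoh1/nGFP*, a transgene that places nuclear green fluorescent protein (GFP) under the control of *Atoh1*, the transcription factor that specifies HCs. They came from a cross of the *Mir96* Dmdo line, kept on C3HeB/FeJ, with the reporter line on C57BL6. Cochlear and vestibular tissues of both ears were pooled, dissociated with thermolysin and sorted for cells positive for both GFP and CD326, the epithelial surface protein encoded by *Epcam*. The RNA therefore mixed inner, outer and vestibular HCs, and fewer cells of a type cannot be told apart from less RNA per cell. Other genotypes of the series were not compared here.

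The 43808 genes of each library held 22379893 reads in library 44, 28486252 in library 55 and 19677015 in library 59. Genes were counted as detected where 2 libraries or all 3 held 20 or more reads each, which was the case for 13421 of 43808 genes (30.6%). Levels are given as CPM, the counts relative to library size, to a sum of 1000000 reads, scaled between libraries with TMM factors. CPM per kb, the CPM divided by the merged exon length of the gene in kilobases, was used to compare levels between genes, apart from the ranking by CPM, which also depends on gene length. Values are mean ± SD over the 3 libraries, and triplets are in the order 44, 55, 59. The libraries were amplified by PCR from nanogram amounts of RNA without molecular identifiers, so the number of reads overstates the number of molecules. One wild-type sample was stated to have a lower RNA integrity than the others, without its number.

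*Mir96*, the gene that names the line, gives rise to miR-96, which is transcribed together with miR-182 and miR-183 in sensory cells. MicroRNAs pair with target transcripts through the seed, bases 2 to 8 of the mature strand. The mature sequences are shown because the label +/+ refers to this form of the miR-96 seed, with the seed in capitals (RefSeq, GRCm38.p6, all 3 on the minus strand of chromosome 6, with 5′ to 3′ from left to right).
miR-182-5p: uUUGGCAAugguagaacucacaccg
miR-96-5p: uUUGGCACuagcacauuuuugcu
miR-183-5p: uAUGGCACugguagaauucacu
miR-96-5p lies at chr6:30169506-30169528, miR-182-5p at chr6:30165962-30165986 and miR-183-5p at chr6:30169711-30169732. Over the whole of bases 2 to 8 no pair of the 3 is identical. The seeds of miR-96-5p and miR-182-5p differ only at base 8, and those of miR-96-5p and miR-183-5p only at base 2. No other gene of the files lies over them, and the nearest, the long non-coding RNA *Rncr4*, lies on the opposite strand. *Mir96* was listed at 0.0874, 7.40 and 27.5 CPM (11.7 ± 14.2 CPM, SD, n = 3), which came from 2, 212 and 526 reads. *Mir182*, at 0.175, 6.74 and 0.0523 CPM, did not reach the detection level, and *Mir183* was at 0 in all 3 libraries. The libraries were not made for small RNA, and the SD over the 3 mice was above the mean, so these counts do not give the abundance of the mature miRNAs.

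The label of the samples was checked against 6 HC genes. *Otof* encodes otoferlin, the calcium sensor of transmitter release in HCs. It had the highest mean CPM of all genes, at 2850, 6233 and 5930 CPM (5004 ± 1872, SD, n = 3). *Spp1*, which encodes the secreted phosphoprotein osteopontin, was at 1829, 1452 and 1513 CPM. *Nefm*, a neurofilament subunit, was at 1018, 1357 and 1380 CPM, and *Myo7a*, the unconventional myosin of Usher syndrome type 1B, was at 966, 1397 and 1363 CPM. The HC transcription factors *Pou4f3* and *Gfi1* were at 1075, 1153 and 1091 CPM and at 957, 654 and 889 CPM. All 6 were high in every library. *Otof* in library 44 was under 50% of its level in either other library, while *Pou4f3* varied least of the 6 (1107 ± 41.2 CPM, SD, n = 3). On the per-length scale *Spp1* was the highest of the 6 (970 ± 123 CPM per kb). *Otof* (chr5:30367062-30461932, minus strand) followed at 633 ± 237 CPM per kb. *Myo7a* (chr7:98051060-98119524, minus strand) was the lowest at 145 ± 28.0 CPM per kb. All 6 lay in the top 5% of detected genes.

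Detected genes spanned a wide range of levels. The median was 34.3 CPM, with 2.82 CPM at the 5th and 257 CPM at the 95th percentile. On the per-length scale the median was 7.95 CPM per kb, from 0.736 at the 5th to 81.0 CPM per kb at the 95th percentile. A mean of 10 CPM or more was reached by 10450 genes, of 100 CPM by 2672 and of 1000 CPM by 54. No gene dominated the libraries. The 20 most abundant genes of a library held 5.17% ± 0.272 of its counts (SD, n = 3), the 100 most abundant 13.6% and the 1000 most abundant 43.9%. Of the top 20, 11 genes were shared by all 3 libraries, and of the top 100, 61 were. Protein-coding genes made up 12000 of the detected genes (89.4%) and between 94.1% and 95.8% of counts, followed by 797 pseudogenes and 535 long non-coding RNA genes. In 25590 genes no read was counted in any library.

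By mean CPM, *Otof* was followed by *Ccer2*, which encodes a coiled-coil glutamate-rich protein, at 6443, 4298 and 3830 CPM (4857 ± 1393, SD, n = 3). *Eef2* and *Eef1a1*, the elongation factors of translation, came next but for *Miat*, with 3978, 2903 and 2899 CPM and with 4219, 2132 and 2497 CPM. *Miat*, a nuclear long non-coding RNA, lay between them at 1405, 3237 and 4324 CPM. Also among the 20 genes of highest mean CPM were the mitochondrial *mt-Co1* and *mt-Cytb*, *Tnc* (tenascin-C), *Lars2*, the chaperone *Hsp90ab1*, the myosin *Myo6*, *Ankrd24*, *Fbxo2*, the immediate early gene *Egr1*, *Rasd2*, *Actb*, *Spp1* and *App*. The order of neighbours within these 20 was not resolved. In all 19 neighbouring pairs the ranges over the 3 libraries overlapped, and *Otof*, first in libraries 55 and 59, ranked 5 in library 44, where *Ccer2* was first.

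Division by exon length changed which genes led. Only 7 of the 20 genes of highest CPM were among the 20 of highest CPM per kb. *Mir6236* (5773 ± 990 CPM per kb, SD, n = 3) came first on this scale, over an annotated gene of 123 bases, and its count in libraries not made for small RNA was not traced to a mature miRNA. *Ccer2* (chr7:28756174-28758968, plus strand, 4608 ± 1322 CPM per kb) was second. *S100a1*, a small calcium-binding protein, was at 2078 ± 721 CPM per kb, and *Selenow* and *Fbxo2*, a selenoprotein and an F-box protein, followed the mitochondrial *mt-Cytb* within the first 8. Of these 20, 10 were protein-coding genes and 9 processed pseudogenes, such as *Gm14303* and *Tpt1-ps3*. Processed pseudogenes can share reads with their parent genes, so the levels of both are uncertain.

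The 28 transcription factors of HC development and identity were all detected, with a median of 34.8 CPM per kb against 7.95 over detected genes, and 9 lay in the top 5%. Medians of lists cover all listed members, detected or not. *Pou4f3*, needed for HC survival, was the highest (461 ± 17.2 CPM per kb, SD, n = 3), followed by its target *Gfi1* at 261 ± 49.9, *Hes6* at 218 ± 83.5, *Tbx2*, a determinant of inner HC fate, at 215 ± 63.1 and *Barhl1* at 206 ± 65.5 CPM per kb. *Pou4f3* lay above the other 4 in every library, while those 4 overlapped in their ranges. *Atoh1* itself was at 184, 256 and 171 CPM (96.2 ± 21.6 CPM per kb). The members with the lowest levels were *Ikzf2*, a regulator of outer HCs, at 0.372 ± 0.194 CPM per kb, and *Tub*. *Ikzf2* was at 3.06, 6.91 and 2.98 CPM, low in all 3 libraries, whereas *Tub* was at 0.568, 1.71 and 13.0 CPM and rested mainly on library 59.

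Of the 9 genes of the mechanotransduction complex all were detected, with a median of 48.1 CPM per kb. The level fell from *Cib2*, a calcium-binding partner of the channel, at 1331, 556 and 992 CPM (670 ± 271 CPM per kb, SD, n = 3), to *Tmc1*, a pore-forming subunit, at 27.4, 21.8 and 59.9 CPM (5.06 ± 2.86 CPM per kb). *Tmc2*, the pore-forming subunit of immature and vestibular HCs, was at 85.6, 60.4 and 80.5 CPM (23.5 ± 4.15 CPM per kb) and above *Tmc1* in each library. *Lhfpl5*, which links the channel to the tip link, was at 208 ± 52.6 CPM per kb, *Tomt*, needed to bring the TMC proteins to the bundle, at 113 ± 40.8 and *Tmie* at 68.5 ± 7.12 CPM per kb. The tip-link cadherins were lower than these, with *Cdh23* at 42.2 ± 14.8 and *Pcdh15* at 11.8 ± 2.03 CPM per kb. *Cib3*, a relative of *Cib2*, was at 159, 91.8 and 40.0 CPM, and its order in the complex changed between libraries.

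All 11 genes of Usher syndrome and the ankle links were detected as well (median 42.2 CPM per kb). *Ush1c*, which encodes harmonin, was at 613, 1035 and 918 CPM (222 ± 56.6 CPM per kb, SD, n = 3), and *Pdzd7*, an ankle-link scaffold, at 220, 280 and 373 CPM. Both were lowest in library 44, as were 7 of the 11 in all, where 33.8% of all detected genes were lowest. The lowest member was *Adgrv1*, the very large ankle-link receptor, at 6.92 CPM per kb.

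The stereocilia list, with actin, its bundling proteins and bundle surface proteins, had 26 of 27 members detected and 13 in the top 5%. Its median was 72.2 CPM per kb. *Actb*, which every cell uses, led at 603 ± 100 CPM per kb (SD, n = 3). Behind it were *Grxcr1* at 233 ± 58.1 and *Espnl* at 233 ± 56.9, the actin regulator *Twf2* at 202 ± 80.5 and the actin bundler *Fscn2* at 182 ± 87.4 CPM per kb. *Espn*, the bundler espin, was at 1158, 1471 and 1538 CPM. *Fscn2* and *Twf2* were highest in library 44, where *Fscn2* was at 592 CPM against 238 and 324 CPM. *Strc*, which encodes stereocilin of the outer HC bundle, ran the other way with 128, 365 and 536 CPM. *Lcp1*, a plastin, was the member not detected, with 27, 0 and 0 reads.

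Among 25 unconventional myosins 22 were detected, and the list median of 6.36 CPM per kb was below that of all detected genes. *Myo6*, at the base of the bundle, was at 1495, 1955 and 2700 CPM (170 ± 50.3 CPM per kb, SD, n = 3), *Myo7a* at 145 ± 28.0 and *Myo15a*, which carries cargo to stereocilia tips, at 745, 1261 and 1668 CPM (96.0 ± 36.3 CPM per kb). *Myo15b* and *Myo3b* were at 61.7 ± 35.4 and 36.8 ± 17.4 CPM per kb. All of these 5 were lowest in library 44, and 4 of the 5 were highest in library 59. Of the 22 detected, 11 were lowest in library 44 and 11 highest in library 59. Over all detected genes these shares were 33.8% and 36.9%. *Myo1f* and *Myo1g* had no read, and *Myo1a* had 1, 96 and 0 reads.

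The ribbon synapse and exocytosis list had 29 of 30 members detected, with a median of 14 CPM per kb. Outside *Otof*, *Slc17a8*, the vesicular glutamate transporter VGLUT3, was the highest at 462, 704 and 825 CPM (141 ± 39.1 CPM per kb, SD, n = 3). The complexin *Cplx2* was at 58.2 ± 14.7, the SNARE *Vamp2* at 54.6 ± 23.5 and the dynamin *Dnm1* at 44.1 ± 19.3 CPM per kb. *Cacna1d*, the pore of the HC calcium channel, was at 288, 296 and 475 CPM, and *Ctbp2*, whose product includes the ribbon protein RIBEYE, at 184, 186 and 141 CPM. The very long scaffolds were low, with *Bsn* (bassoon) at 6.82 and *Pclo* (piccolo) at 1.06 CPM per kb. *Cabp1* had 169, 280 and 0 reads, and *Cabp2* had no read in any library.

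All 22 calcium-handling genes were detected, with a median of 44.2 CPM per kb and 8 in the top 5%. *S100a1* led, followed by the calmodulin genes *Calm2* (707 ± 189 CPM per kb, SD, n = 3) and *Calm3* (639 ± 110). Of the mobile buffers, *Calb2* (calretinin) was at 707, 345 and 443 CPM, *Pvalb* (parvalbumin) at 441, 138 and 298 CPM and *Calb1* (calbindin) at 354, 220 and 583 CPM. *Ocm*, the oncomodulin of outer and vestibular HCs, was at 139, 72.1 and 137 CPM. These 4 were each lowest in library 55, as were 12 of the 22 in all, where 27.4% of all detected genes were lowest. Of the transporters, the sodium-calcium exchanger *Slc8a2* was at 211 ± 46.4 CPM per kb.

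Potassium channels were low as a list, with a median of 4.65 CPM per kb and 14 of 18 detected. *Kcna10* was at 243, 210 and 226 CPM (104 ± 7.46 CPM per kb, SD, n = 3) and was the only member in the top 5%. *Kcnma1* and *Kcnn2*, the large and small conductance calcium-activated channels of mature HCs, were at 3.71 and 1.07 CPM per kb. *Kcna1* and *Kcnip1* had no read. The acetylcholine receptor list had 7 genes, of which *Rapsn* encodes a receptor-associated protein and not a subunit. *Chrna10* and *Chrna9*, the subunits of the efferent receptor, were at 208 ± 34.5 and 60.5 ± 11.1 CPM per kb. *Chrng* and *Chrna1*, known from muscle, were at 67.7 ± 9.83 and 14.3 ± 3.64 CPM per kb. *Chrnd* (0.0874, 11.4 and 0.0523 CPM) and *Rapsn* (no read) were not detected.

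**Figure D1:**
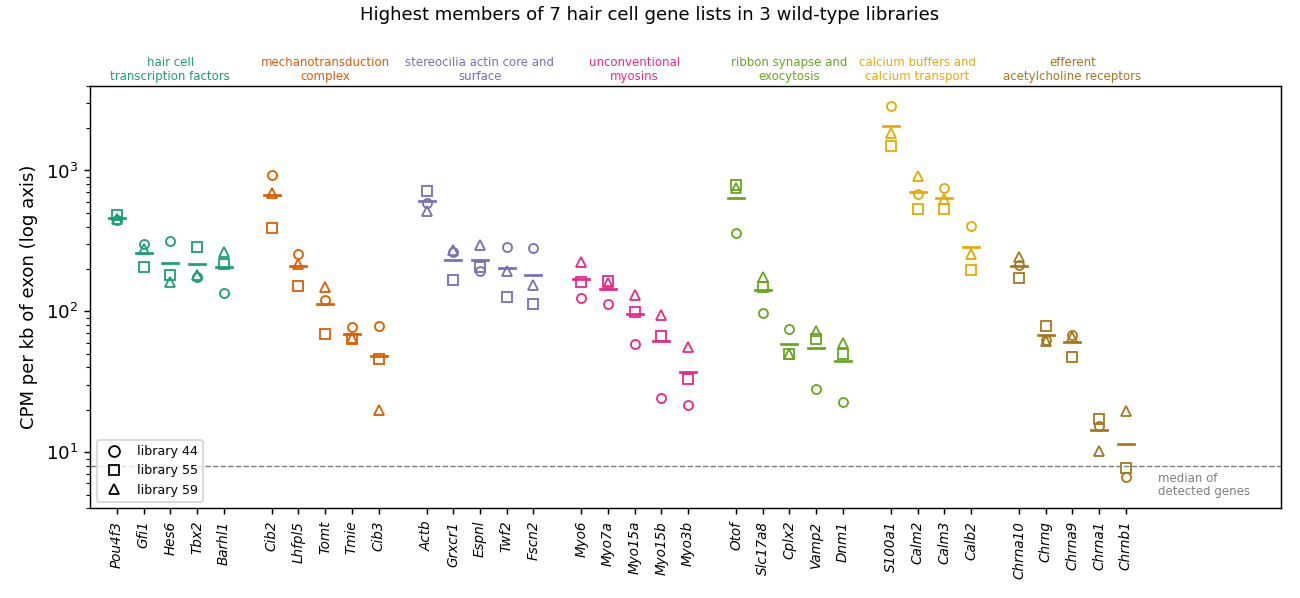
CPM per kb of exon (log axis) of 4 or 5 of the highest members of each of 7 HC gene lists in wild-type libraries 44 (circles), 55 (squares) and 59 (triangles), with a bar at the mean of the 3 and a dashed line at the median of detected genes, 7.95 CPM per kb. *Pou4f3* varied little between libraries, *Otof* was lowest in library 44 and *S100a1* had the highest level shown.

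Genes known from inner HCs had higher levels as a list than those known from outer HCs, in each library. All 8 of the inner HC list were detected, with a median of 125 CPM per kb and 6 in the top 5%, while the 8 outer HC genes, also all detected, had a median of 17.5 CPM per kb and 1 in the top 5%. By library the medians were 105, 126 and 164 CPM per kb for the first list and 7.08, 13.3 and 18.9 CPM per kb for the second. The inner HC list shared *Otof* with all HCs at this age and *Calb2* with vestibular HCs, so it is not specific. *Fgf8*, a growth factor of inner HCs, was at 151, 123 and 83.4 CPM (88.1 ± 25.1 CPM per kb, SD, n = 3). *Slc26a5*, the motor protein prestin of outer HCs, was at 5.24, 12.9 and 6.95 CPM (2.72 ± 1.31 CPM per kb), and *Strip2* at 155, 86.4 and 232 CPM. Of 10 genes known from vestibular HCs 9 were detected, with a median of 143 CPM per kb and 7 in the top 5%. *Skor1* (553, 641 and 605 CPM), *Mlf1* (209, 187 and 274 CPM) and *Anxa4* (450, 396 and 705 CPM) were high in all 3 libraries. *Mapt*, which encodes tau, had 14, 526 and 1 reads and was not detected.

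The ligands of HCs were high as a group, with 10 of 11 detected and a median of 48.9 CPM per kb. After *Spp1* (970 ± 123 CPM per kb, SD, n = 3) came the chemokine *Cxcl14*, at 1133, 1053 and 1270 CPM. The Notch ligands were ordered *Jag2* (189 ± 33.0 CPM per kb), *Dll1* (48.9 ± 17.4) and *Dll3* (35.2 ± 12.4), the last pair with overlapping ranges. The neurotrophin *Bdnf* was at 274, 204 and 281 CPM and *Ntf3* at 13.6 CPM per kb. *Gdf10* had 0, 63 and 0 reads. In the neurofilament and neuronal cytoskeleton list 13 of 19 were detected, and its median of 4.27 CPM per kb was below that of all detected genes. *Tuba1a*, a tubulin, was at 963, 906 and 645 CPM and *Nefl*, the light neurofilament subunit, at 306, 237 and 393 CPM, whereas *Prph*, *Gap43*, *Tubb3*, *Stmn2*, *Dcx* and *Mapt* were not detected. *Tubb3* had 313, 14 and 1 reads.

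The kinocilium is the true cilium of the HC. All 29 genes of the kinocilium and of intraflagellar transport were detected (median 19.6 CPM per kb), led by *Foxj1*, the transcription factor of motile cilia, at 730, 754 and 659 CPM (272 ± 18.9 CPM per kb, SD, n = 3), and the tektins *Tekt2* (238 ± 42.0) and *Tekt1* (124 ± 40.4). *Dnali1* was at 317, 334 and 3 reads. Of 103 deafness genes 88 were detected, 62 lay above the median of detected genes and 26 in the top 5%. Besides members named above, *Cldn9*, a tight junction claudin, was at 746, 536 and 588 CPM, *Tmprss3*, a serine protease, at 660, 476 and 703 CPM and *Loxhd1*, a stereocilia protein, at 496, 804 and 1090 CPM. Deafness genes known from other cell types were found on both sides of the detection level. *Coch* (4, 189 and 2 reads) and *Slc26a4* (4, 129 and 3 reads) were not detected. *Tecta*, *Gjb2* and *Otog*, which are also on the supporting cell list below, lay in the top 5%.

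Markers of other cell types were measured beside these. Those of supporting cells, the neighbours of HCs in the sensory epithelium, were present, with 24 of 24 detected, a median of 26.1 CPM per kb and 6 in the top 5%. *Sox2*, which young and type II vestibular HCs also express, was at 298, 393 and 268 CPM, *Tecta*, of the tectorial membrane, at 498, 1596 and 681 CPM and *Gjb2*, a connexin, at 225, 395 and 240 CPM. The summed level of the list was 3507, 6373 and 3127 CPM. Of the 24, 18 were highest in library 55, where 28.5% of all detected genes were. *Otog* (525, 1547 and 478 CPM) and *Sox10* (53.6, 171 and 27.0 CPM) were among those whose level in library 55 was over 2-fold above both others. What part of these counts came from supporting cells, from HCs or from RNA released on dissociation was not tested.

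The remaining cell types were low. Schwann cell genes had 6 of 8 detected and a median of 1.14 CPM per kb, with *Cnp* (282, 178 and 185 CPM) and *Erbb3* (42.2, 88.9 and 44.2 CPM) above the median of detected genes. Mesenchyme genes had 9 of 11 detected and a median of 3.16 CPM per kb, with *Col1a2* at 56.0, 145 and 95.1 CPM. Of 12 neuron genes 4 were detected, and of these *Gata3* is also an HC gene. The macrophage and melanocyte lists had 0 of 7 and 0 of 5 detected, the endothelial list 1 of 7, and all 8 red blood cell genes, among them *Hba-a1*, *Alas2* and *Slc4a1*, had no read. A count of 0 allows up to 3 reads, which is 0.134, 0.105 and 0.152 CPM in the 3 libraries (counting error only). Proliferation genes were low as well (median 0.667 CPM per kb, 6 of 9 detected). *Mki67*, *Ccnb1* and *Cdk1* were not detected, and *Pcna* was at 52.2, 38.8 and 35.8 CPM. These low medians moved with single libraries, to 0.740 CPM per kb for Schwann cell genes without library 55, 1.93 for mesenchyme genes without library 59 and 0.445 for proliferation genes without library 44. None of 1052 olfactory receptor genes was detected.

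**Figure D2:**
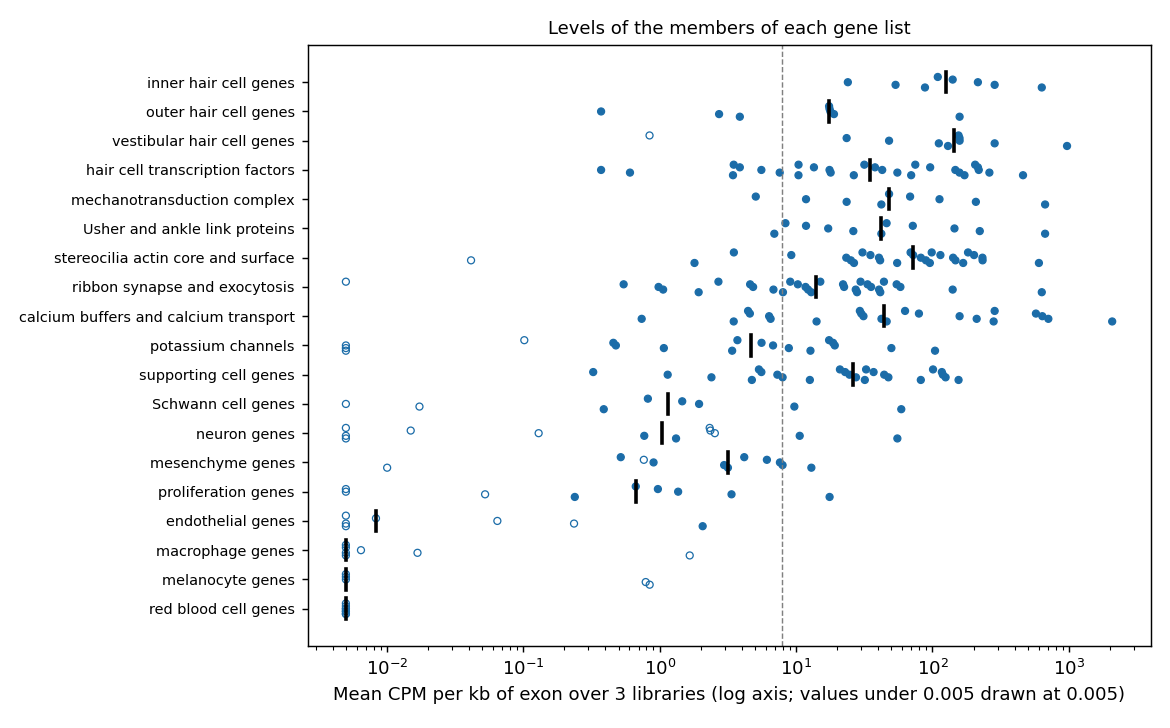
Mean CPM per kb of exon over the 3 libraries (log axis, values under 0.005 drawn at 0.005) for each member of 19 gene lists, filled where the gene was detected, with a black bar at the list median and a dashed line at the median of detected genes. Of the 10 HC lists plotted, 9 had medians above the dashed line and the potassium channels below it. Lists not plotted lay on both sides of it, with unconventional myosins (6.36) and the neurofilament list (4.27 CPM per kb) below. The lists of other cell types, except supporting cells, lay below it.

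Immediate early genes, which respond to stimuli within minutes, were at high levels. All 19 were detected, 18 lay above the median of detected genes and 9 in the top 5%. *Fos* was at 970, 1634 and 1231 CPM (543 ± 142 CPM per kb, SD, n = 3), *Egr1* at 908, 2597 and 1621 CPM and *Fosb* at 487, 1584 and 1045 CPM. The order of libraries was shared by most of them. Of the 19, 17 were highest in library 55 and 15 lowest in library 44, where over all detected genes 28.5% were highest in library 55 and 33.8% lowest in library 44. Their summed level was 6472, 12368 and 8388 CPM. Heat shock genes did not share this order, with 6 of 10 detected members highest in library 59, where 36.9% of all detected genes were. *Hsp90ab1* was at 1922, 2240 and 2586 CPM, and the inducible *Hspa1a* and *Hspa1b* were not detected. Reads of near-identical genes such as this pair may be lost in the counting, so this was not taken as a lack of expression.

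Genes of translation and respiration set library 44 apart. Of 77 detected cytosolic ribosomal protein genes, 58 were highest in library 44, where 34.5% of all detected genes were. Their summed level was 13703, 5681 and 6445 CPM. *Rps15* was at 822, 319 and 347 CPM, *Rpl8* at 1457, 638 and 776 CPM and *Rpl41* at 850, 230 and 298 CPM, each over 1.5-fold above both other libraries. Nuclear genes for subunits of oxidative phosphorylation had 60 of 75 highest in library 44 (sums 14280, 7635 and 8878 CPM), such as *Cox4i1* at 1056, 399 and 561 CPM. Mitochondrial ribosomal proteins had 50 of 74 (sums 4022, 2002 and 2588 CPM) and proteasome subunits 22 of 36. Translation factors were spread more evenly, with 30 of 64 highest in library 44. Gene length varied with these lists. The 3357 shortest detected genes (up to 2556 bp of exon) held 53 of the 77 cytosolic ribosomal, 56 of the 75 oxidative phosphorylation and 37 of the 74 mitochondrial ribosomal genes. They held 15 of the 36 proteasome subunits and 15 of the 64 translation factors. Over all of these short genes the median deviation from the 3-library mean was 0.45 in library 44, -0.04 in library 55 and -0.16 in library 59 (log2 scale). In the 3355 longest it was -0.16, 0.12 and 0.13. The part of length in the list values was not tested.

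The mitochondrially encoded genes followed another order. All 7 that were detected were highest in library 59, where 36.9% of all detected genes were. In that library *mt-Co1* was at 4168 CPM against 2129 and 2217 CPM. *mt-Nd1* was at 1359 against 395 and 584 CPM and *mt-Nd2* at 832 against 181 and 337 CPM. The summed level was 5489, 6058 and 11823 CPM. *Malat1*, a nuclear long non-coding RNA, was also highest there, at 543, 655 and 1195 CPM. Library 44 in turn was lowest for 20 of 29 detected synapse genes (33.8% of all detected genes were lowest there), whose summed level was 6124, 10469 and 10739 CPM, and for 16 of 28 HC transcription factors.

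**Figure D3:**
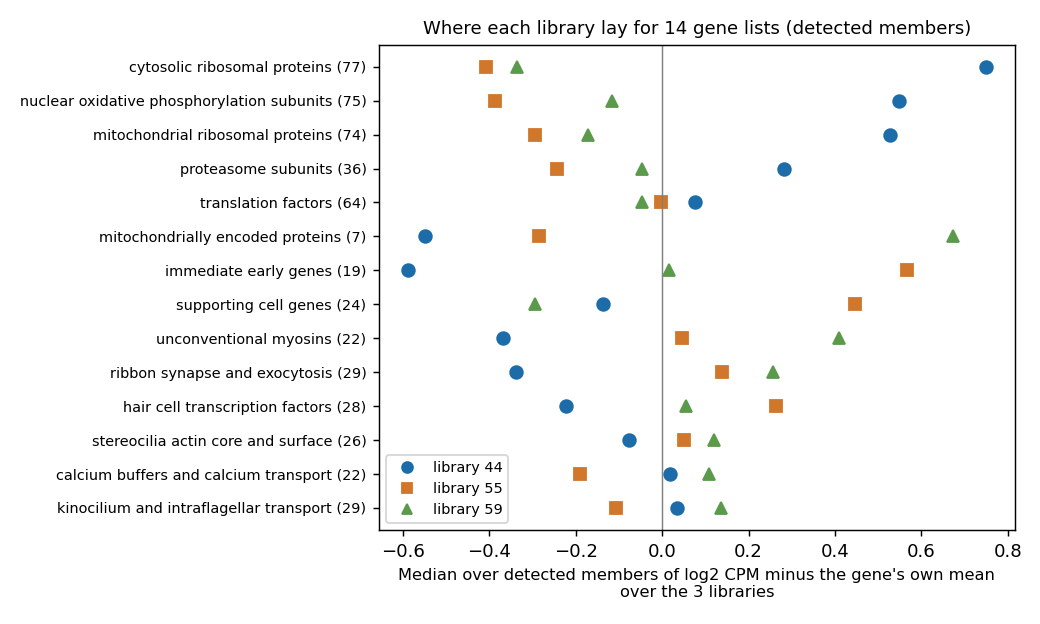
Median over the detected members of 14 lists (their number in brackets) of log2 CPM minus the gene's own mean over the 3 libraries, for library 44 (circles), 55 (squares) and 59 (triangles). Ribosomal and oxidative phosphorylation genes lay highest in library 44, immediate early and supporting cell genes in library 55, and mitochondrially encoded genes in library 59.

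Genes that every cell uses were also found at or near 0, so that a gene listed at 0 was not taken as absent from HCs. *mt-Co2*, *mt-Co3*, *mt-Atp8*, *mt-Nd3* and *mt-Nd4l* had no read in any library and *mt-Atp6* had 1, 0 and 0, while *mt-Co1*, from the same polycistronic transcripts, was among the most abundant genes. *Uqcrc1*, a core subunit of complex III, had no read. *Rps28* had 12, 26 and 0 reads and *Rpl38* had 3, 1 and 138. *Gapdh*, a glycolytic enzyme, was at 9.39, 4.57 and 65.2 CPM, and its 6.38 ± 8.15 CPM per kb (SD, n = 3) lay below the median of detected genes. How the counting treated reads that matched several places or genes is not stated in the sources used here, and its part in these values was not tested.

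*Xist*, the long non-coding RNA of the inactive X chromosome, was the gene with the largest spread among those with a mean of 10 CPM or more, at 756, 2.03 and 1253 CPM. The 4 Y-linked genes examined (*Eif2s3y*, *Ddx3y*, *Kdm5d* and *Uty*) summed to 3.58, 104 and 1.88 CPM. Library 55 thus stood opposite the other 2 for both, and the sex of the mice is not given per library in the labels.

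The spread between the 3 mice depended on level. The SD of log2 CPM had a median of 0.64 over detected genes, and the highest library was over 4-fold above the lowest in 3980 of them (29.7%). Below 3 CPM the median SD was 2.52 and 97.0% of genes were over 4-fold apart. From 10 to 30 CPM it was 0.79, with 33.0%, and at 300 CPM and over it was 0.36, with 1.55%. Counting of independent reads alone would give medians of 0.50, 0.08 and 0.01 in these 3 ranges, and the reads here are not independent molecules. The common biological coefficient of variation from edgeR was 77.6%. Across the 13421 genes, which are not independent replicates, libraries 44 and 55 were the most alike (Pearson r = 0.82 and Spearman rho = 0.89 of log2 CPM, median difference 1.55-fold) and libraries 44 and 59 the least (r = 0.66, rho = 0.82, 1.83-fold).

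Among genes at 100 CPM or more, the most even was *Ptprt*, a receptor tyrosine phosphatase, at 121, 120 and 121 CPM. *Tctn1*, a protein of the ciliary transition zone, was at 181, 183 and 181 CPM and *Bace1*, a protease that cleaves the product of *App*, at 216, 218 and 214 CPM. *Rin1*, *Hspa9*, *Xpo6*, *Nploc4*, *Sqle*, *Cyria* and *Zmym3* completed the 10, all within 1.02-fold. Whether their variation was lower than that of other genes was not tested.

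The genes at the other end were read in some libraries and almost not in others. After *Xist*, the largest spreads were those of *Gm44732* (528, 255 and 0 reads), *Casp8*, a protease of cell death (246, 2 and 791 reads), *Uchl3* (335, 2 and 672 reads), *Plekhh3* (373, 704 and 1 reads) and *Csmd2* (1, 346 and 513 reads). Each had 246 or more reads in 2 libraries and 2 or fewer in 1. In all, 1414 detected genes (10.5%) had 100 or more reads in a library and 5 or fewer in another. Library 59 alone was the low one in 1089 of them, library 44 in 238 and library 55 in 87. Members of HC lists were among them, as *Cabp1*, *Dnali1*, *Kcnj13* (628, 178 and 1 reads), *Kcnc1* (134, 217 and 2 reads), *Myo7b* (203, 445 and 3 reads), *Myo18b* (334, 329 and 2 reads) and *Slc8a3* (121, 182 and 3 reads), all 7 at 3 or fewer reads in library 59. *Mir96*, by contrast, was low in library 44.

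The loss depended on the level in the other libraries. Among genes with 20 or more reads in both other libraries at a mean of 3 to 10 CPM there, 48.8% were under 20 reads in library 59, 24.8% in library 44 and 8.5% in library 55. From 10 to 30 CPM these shares were 15.6%, 4.04% and 1.47%, and at 100 CPM and over no gene was lost. Detection thus differed between the libraries for genes of low level and not for the HC genes with high levels described above. Just inside the detection level lay 20 genes whose second highest library had exactly 20 reads, among them *Snx10* (2, 20 and 371 reads), and just outside it 25 genes with 19 reads, among them *Ddx3y* (19, 670 and 4 reads).

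**Figure D4:**
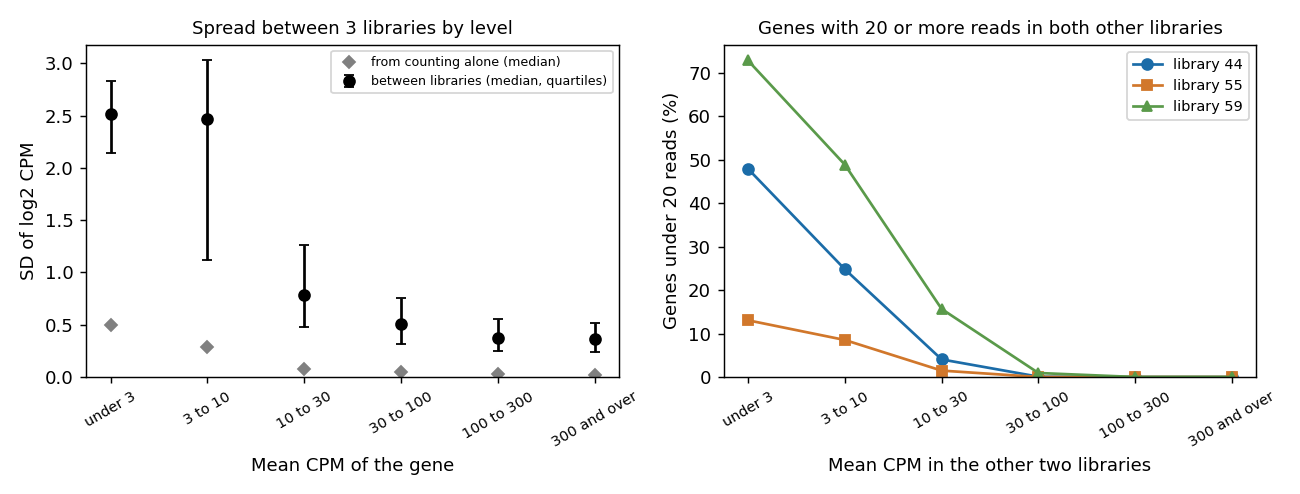
Left, SD of log2 CPM over the 3 libraries by mean CPM of the gene, as the median with quartiles (circles) beside the median expected from counting alone (diamonds), which fell from 2.52 to 0.36 and from 0.50 to 0.01. Right, the percentage of genes under 20 reads in 1 library among those with 20 or more in both others, by their mean CPM there, with library 59 highest up to 100 CPM.

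The distribution of the number of reads per gene differed between the libraries. In library 59, 2987 genes had 1 to 9 reads, 492 had 10 to 49 and 6904 had from 200 to under 1600. The same classes held 2536, 993 and 6704 genes in library 44 and 1124, 1289 and 6506 in library 55. The class of 50 to 199 reads held 2458, 2822 and 1371 genes in libraries 44, 55 and 59. The counts were thus sparse between 10 and 49 reads in library 59 and less so in library 55, which had the most reads.

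**Figure D5:**
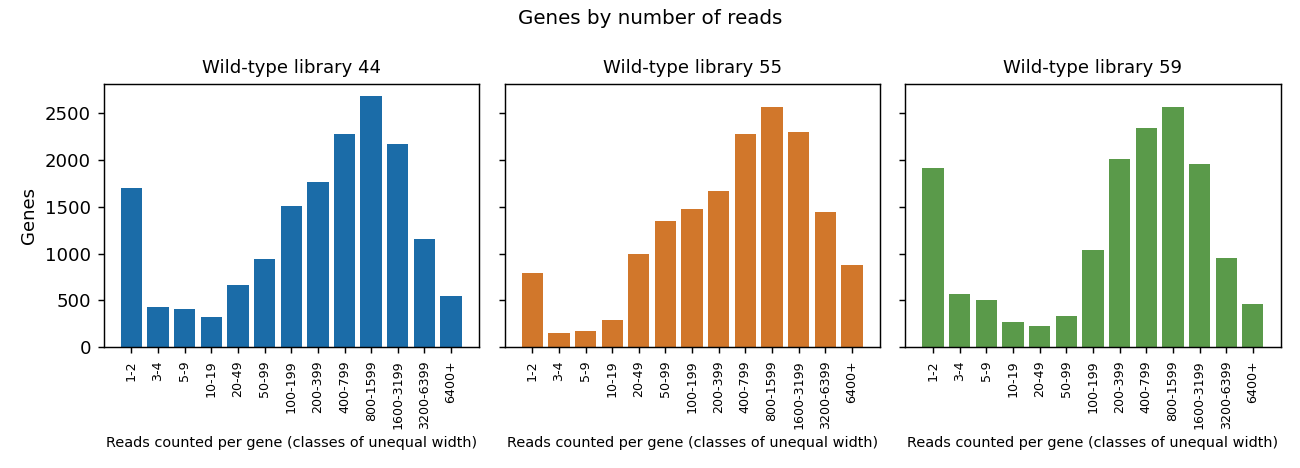
Number of genes by reads counted per gene in each wild-type library, in classes of unequal width and without genes at 0. Library 59 has few genes between 10 and 99 reads, with peaks on both sides, while library 55 shows the smallest peak at 1 to 2 reads.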

How the data were processed

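RNA of sorted HCs from 3 wild-type P1 mice was sequenced by the authors from strand-specific libraries. Per the authors' methods and the submitters' processing notes, reads were aligned to GRCm38 with HISAT2 2.0.4 and counted with HTSeq. The deposited values are raw counts per Ensembl gene with no normalization. The authors annotated genes with BioMart. The strand setting of the counting and its treatment of ambiguous reads were not found in the sources used here, so overlapping, antisense and near-identical genes may be mixed or lost. All 43808 gene IDs matched GENCODE vM21 (GRCm38), which gave symbols, classes and merged exon lengths. The authors' comparisons and the 6 other libraries were not used.

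TMM factors, CPM, log2 CPM (prior count 2) and dispersion (intercept only) were computed with edgeR 4.0.16, and alternatives with DESeq2 1.42.0, in R 4.3.3. Tables were made with Python 3.11.15 and pandas 2.3.3. The counts of each pair of libraries were further apart than counting noise allows (203 to 266 chi-square units per gene), and each was taken as 1 replicate. No difference was tested, since there is 1 group. The wild types were littermates of mutants, and which mice shared a litter was not found. The spread measure was run on simulated counts with the same coefficient of variation for all genes. The data do not have that property, so the simulation cannot show how the measure behaves for genes of low level. The lists and the genes named were chosen with earlier results of these data known. Named were the 20 highest genes by CPM and by CPM per kb, the markers, list members by level or detection, and the genes of largest and smallest spread (10 and 100 CPM or more). List members outside this rule (such as *Strc*, *Tmc1* and *Cacna1d*) were named after their values were seen, for their known roles. *Lrtomt* and *Rmst* of the lists did not match a gene. Some genes are not reported here.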

Additional observations from a re-analysis of the deposited data

How the results depend on the processing

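The number of detected genes lay between 10982 and 18218 under other filters (13421 as reported) and between 11112 and 12839 with each library left out. The share of counts in the 20 most abundant genes was 5.28% over protein-coding genes and between 5.02% and 5.29% with each library left out. The median SD of log2 CPM (0.64) was 0.74 with no filter and 0.53 with 20 or more reads in all 3 libraries, and genes over 4-fold apart (3980) numbered 7048 and 1548, since the filter sets how many low genes enter. With each library left out, where both others needed 20 reads, the median SD was 0.42 to 0.48, the genes over 4-fold apart 778 to 1038 and the coefficient of variation 46.6% to 53.2%. Over the same 13421 genes, a choice made after seeing the data, the median SD was 0.52 without library 44, 0.62 without 55 and 0.45 without 59, and genes over 4-fold apart numbered 2844, 3288 and 1315. A fold between 2 libraries cannot exceed that between the highest and lowest of 3, so none of these counts could lie above 3980. Only without library 59 was the count lower by over 1.5 times. DESeq2's gene-wise median gave a coefficient of variation of 43%, a median over genes and not a common value. Of 269 recomputed list medians 33 moved by over 1.5 times, among them the mitochondrially encoded genes without library 59 (15.6 CPM per kb). With the longest transcript in place of merged exons, the synapse list rose to 24.0 and cytosolic ribosomal proteins to 31.7 CPM per kb, where the median over detected genes was 10.6. No paired analysis was possible because only 1 genotype was described. The 20 reads needed for detection are 0.894, 0.702 and 1.02 CPM in libraries 44, 55 and 59, yet among genes with a mean of 3 to 10 CPM in the other libraries 48.8% in library 59 and 24.8% in library 44 were below them, and the cause was not tested.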

Other observations

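Of 14 long non-coding RNAs listed, 11 were detected. By mean CPM, *Miat* was followed by *Malat1* (798) and *Xist* (670). Per length it was followed by *Snhg8*, a snoRNA host gene (118 CPM per kb), and *Malat1* (114 CPM per kb). *Snhg8* was at 173, 68.0 and 62.1 CPM and the imprinted *H19* at 72.5, 63.4 and 37.1 CPM, both highest in library 44. The imprinted transcripts *Meg3* (2, 97 and 0 reads), *Mirg* (0, 39 and 0 reads) and *Rian* (no read) did not reach the detection level, and the first pair had nearly all of their reads in library 55. Outside the list, the antisense gene *Gm15564* was the highest long non-coding RNA per length, at 184, 205 and 747 CPM (461 ± 389 CPM per kb, SD, n = 3), with library 59 above both others.

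Replication-dependent histones, whose transcripts largely lack the poly(A) tail, had 9 of 65 genes detected and 44 with no read. *H2bc27* was the highest at 434, 199 and 206 CPM (456 ± 217 CPM per kb, SD, n = 3), and *H1f2* was next at 54.2 ± 12.4 CPM per kb. These genes are close copies of each other, so their single values are uncertain.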
